A study of Mus musculus with 2 samples.

Results

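The transcriptome described here is that of 1 RNA-seq library, from the interscapular brown adipose tissue (iBAT) of flox/flox control mice, and it is read on its own: which transcripts were most abundant, how the summed signal was divided among gene classes and cell types, and which member of each gene family was used. It was chosen by its genotype label and is 1 of the 2 libraries of the series. The mice were C57BL/6, were 8 weeks old and carried *Mettl3* alleles in which exons 2 and 3 are flanked by loxP sites, with no Cre transgene. In the study they served as the control for a deletion of *Mettl3*, the catalytic subunit of the enzyme that writes N6-methyladenosine on RNA, in brown adipocytes. Interscapular tissue was flash frozen and its RNA taken up in TriPure reagent. RNA of 4 such mice was pooled into the library per the study's methods, so there are no replicates. Every interval below covers counting error only and says nothing about variation between mice.

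Brown adipose tissue burns fatty acids and glucose to make heat. Its adipocytes hold many small lipid droplets and are packed with mitochondria, and uncoupling protein 1 (UCP1) lets protons flow back across their inner membrane without ATP synthesis. Noradrenaline from sympathetic nerves switches the cells on through the beta3-adrenergic receptor, cyclic AMP and protein kinase A. The tissue also holds a dense capillary bed, fibroblasts, immune cells and nerve fibres, and a library of whole tissue may hold RNA of each.

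The deposited table listed 52768 genes, 22194 of them above 0, in fragments per kilobase of exon scaled to the size of the library (FPKM), a unit that allows genes of different length to be compared within a library. A value of at least 1 FPKM, the level used here as detection, was reached by 11898 genes, of which 10231 were protein-coding. The median of these detected genes was 5.53 FPKM. For 19884 genes the whole number of fragments behind the FPKM could be recovered, and such values are given with an exact Poisson 95% interval where the result turns on them.

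The markers of brown fat stood near the top of the list. *Ucp1* (chr8:83290352-83298452 in GRCm38) reached 3164 FPKM (95% interval 3144 to 3185, 90498 fragments), rank 13 of all genes, behind only *Scd1* and *Cox6a1* among nuclear protein-coding genes. *Fabp4*, a fatty acid carrier of all adipocytes, had 1633 FPKM and rank 25. *Cidea*, which fuses lipid droplets in brown adipocytes, had 1585 FPKM and rank 28, and *Adipoq*, the adipocyte hormone adiponectin, had 665 FPKM and rank 69. All these markers lay above 99% of the detected nuclear protein-coding genes, whose 99th percentile was 368 FPKM, so the tissue label was borne out by its markers. *Mettl3* itself had 1.80 FPKM.

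The summed signal was concentrated in few genes. The most abundant gene, *mt-Co1*, held 11.0% of the summed FPKM, the 10 most abundant held 35.2%, the 100 most abundant 56.3% and the 1000 most abundant 79.9%. Only 53 genes were needed to reach 50% of the sum, and 2984 to reach 90%. Only 3862 of the detected genes reached 10 FPKM, and 460 reached 100 FPKM.

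**Figure D1:**
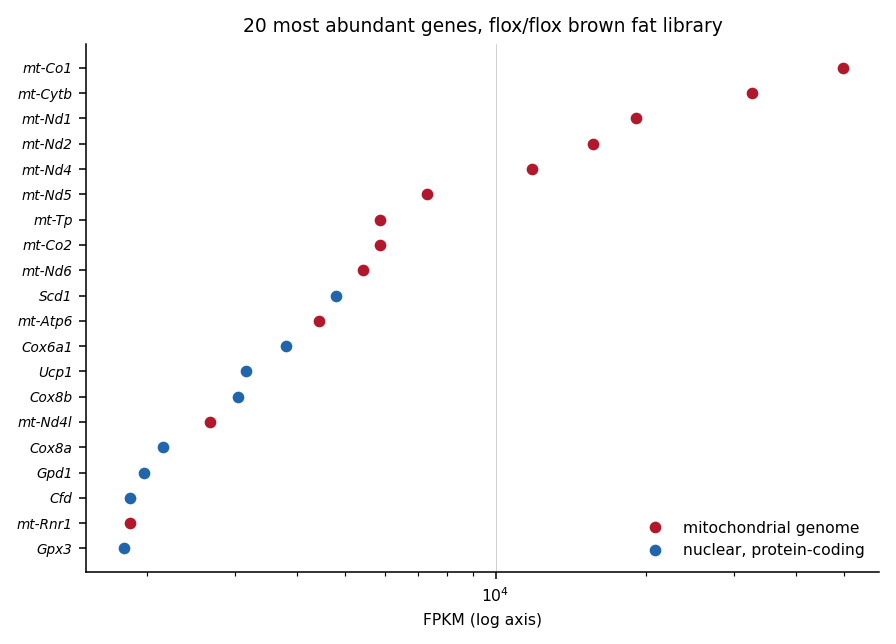
The 20 most abundant genes of the flox/flox library, in order of FPKM (log axis), with exact Poisson 95% intervals as lines, narrower than the points, where fragments were recovered (red for the mitochondrial genome, blue for nuclear protein-coding genes). Mitochondrial genome transcripts take 9 of the first 10 places, and *Scd1*, *Cox6a1*, *Ucp1* and *Cox8b* lead the nuclear genes.

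Transcripts of the mitochondrial genome accounted for much of this concentration. They made up 9 of the 10 and 15 of the 30 most abundant genes. The 13 mitochondrial mRNAs, which encode core subunits of the respiratory chain and ATP synthase, held 34.9% of the summed FPKM and 17.5% of the estimated fragments. Without mitochondrial transcripts the 10 most abundant genes held 9.39% of the remaining FPKM and 311 genes were needed to reach 50%.

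**Figure D2:**
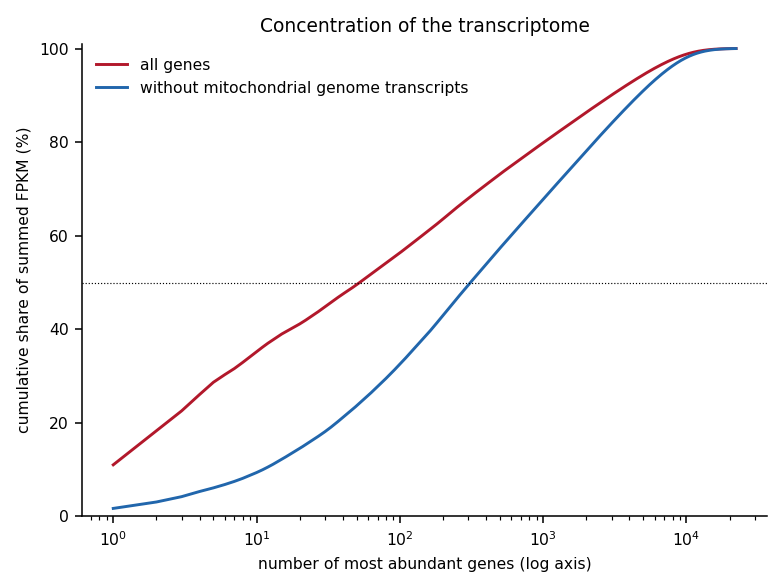
Cumulative share of the summed FPKM (y axis, %) against the number of most abundant genes (x axis, log), for all genes and for the same library without mitochondrial genome transcripts. The line at 50% is crossed at 53 genes with, and at 311 genes without, the mitochondrial transcripts.

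The mitochondrial mRNAs differed widely among themselves, although most are cut from the same long precursor. *mt-Co1* (cytochrome c oxidase subunit 1) had 49635 FPKM, *mt-Cytb* (cytochrome b) 32717 FPKM and *mt-Nd1* (complex I) 19099 FPKM. *mt-Co2* had 5861, *mt-Atp6* 4432, *mt-Co3* 1783, *mt-Nd3* 201 and *mt-Atp8* 159 FPKM. The levels of *mt-Co1* and *mt-Co3*, subunits of the same enzyme, thus lay far apart.

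Nuclear copies of mitochondrial DNA bear on these values. A run of 7 annotated pseudogenes at chr1:24611535-24616197 (GRCm38) carried sequence like mitochondrial genes and summed to 4397 FPKM. *Gm10925* (1136 FPKM) was identical to *mt-Atp6* over 678 bases, *Gm28661* (722 FPKM) to *mt-Co2* over 681 bases and *Gm28437* (506 FPKM) to *mt-Co3* over 783 bases. *Gm28438* (684 FPKM) matched *mt-Nd3* at 99.7% identity and was listed above the mitochondrial gene itself. A read from such a stretch cannot be told apart by sequence between the 2 origins. The 6 mitochondrial mRNAs covered over at least 50% of their length by a nuclear copy of at least 99% identity (*mt-Nd4*, *mt-Co2*, *mt-Atp6*, *mt-Nd4l*, *mt-Co3* and *mt-Nd3*) had a median of 3554 FPKM (range 201 to 11803), and the other 7 a median of 15687 FPKM (range 159 to 49635). At 95% identity, the cut used for other genes below, 8 were covered, *mt-Co1* among them. These had a median of 5146.5 FPKM (range 201 to 49635), and the other 5 a median of 15687 FPKM (range 159 to 32717). The part of the copies in the order of the mitochondrial mRNAs was not tested. In all, 11 pseudogenes were near copies of mitochondrial genes and held 34.3% of all pseudogene FPKM.

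Among the 22 mitochondrial tRNAs, 19 were above 0, led by *mt-Tp* at 5875 FPKM from 6881 fragments over 67 bases. *mt-Tl2* had 1597 FPKM and *mt-Tc* 1437 FPKM, whereas *mt-Tf*, *mt-Td* and *mt-Tg* were listed at 0. The tRNAs held 2.60% of the summed FPKM and only 0.0730% of the estimated fragments, since FPKM weights such short genes heavily. The ribosomal RNAs *mt-Rnr1* and *mt-Rnr2*, which form the mitochondrial ribosome, had 1848 and 1796 FPKM. The study's methods do not say whether classes of RNA were selected or depleted for the library. The part of such a step in the levels of ribosomal, transfer and other noncoding RNAs was not tested.

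By annotated class, nuclear protein-coding genes held 57.5% of the summed FPKM and 80.3% of the estimated fragments. Pseudogenes held 2.92%, long noncoding RNAs 0.713% and miRNA genes 0.178% of the summed FPKM. *Malat1* and *Neat1*, nuclear RNAs of the speckle and paraspeckle, led the long noncoding RNAs at 103 FPKM each. *Gm44386* followed at 93.7 FPKM. *Mir5125* was the highest miRNA gene at 244 FPKM, and *Gm24494* the highest small nucleolar RNA at 19.8 FPKM. The 120 loci above 0 that the authors named outside the annotation held 0.120% of the sum.

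Among nuclear protein-coding genes, *Scd1* (stearoyl-CoA desaturase 1, which makes monounsaturated fatty acids) was first at 4787 FPKM. Subunits of cytochrome c oxidase came next to *Ucp1*: *Cox6a1* at 3808 FPKM, *Cox8b* at 3051 FPKM and *Cox8a* at 2159 FPKM. *Gpd1*, which makes glycerol 3-phosphate for triglycerides, had 1975 FPKM. *Cfd*, the secreted complement factor adipsin, had 1854 FPKM and *Gpx3*, a secreted glutathione peroxidase, 1800 FPKM. *Pck1*, which supplies glycerol from pyruvate in fat, had 1652 FPKM, and *Car3*, a carbonic anhydrase, 1633 FPKM. The list down to 1000 FPKM held 24 nuclear protein-coding genes, among them *Fth1* (ferritin heavy chain, 1363 FPKM) and *Aldoa* (the glycolytic enzyme aldolase, 1011 FPKM).

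The bases just before the start of some of these genes are shown to illustrate how unlike the promoters of the most abundant genes were. The 60 bases upstream of the start are from RefSeq on GRCm38.p6, for the 8 most abundant nuclear genes with an entry whose start lay within 50 bases of the annotated gene start. Capitals mark TATAAA or TATATA, the GC box GGGCGG, the CCAAT box and the ETS core CCGGAAG, each on either strand. None of these letter strings lies within another.
Cox6a1 (chr5:115348959-115349018, - strand): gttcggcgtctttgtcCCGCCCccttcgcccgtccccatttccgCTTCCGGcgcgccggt
Ucp1 (chr8:83290288-83290347, + strand): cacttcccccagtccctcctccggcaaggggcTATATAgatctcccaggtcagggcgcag
Cox8b (chr7:140900447-140900506, - strand): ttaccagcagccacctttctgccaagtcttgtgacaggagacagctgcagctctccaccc
Cox8a (chr19:7217617-7217676, - strand): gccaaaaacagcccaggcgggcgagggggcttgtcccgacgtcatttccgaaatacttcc
Cfd (chr10:79890793-79890852, + strand): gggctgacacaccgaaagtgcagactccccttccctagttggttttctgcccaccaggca
Pck1 (chr2:173153013-173153072, + strand): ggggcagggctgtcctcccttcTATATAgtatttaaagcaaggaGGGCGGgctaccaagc
Atp5b (chr10:128083247-128083306, + strand): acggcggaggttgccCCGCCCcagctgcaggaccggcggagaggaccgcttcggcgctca
Fasn (chr11:120824548-120824607, - strand): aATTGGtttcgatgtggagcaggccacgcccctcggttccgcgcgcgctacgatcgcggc

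The TATATA of *Ucp1* began 28 bases, and that of *Pck1* 38 bases, before the start. The *Cox6a1* window held a GC box at 44 and an ETS core at 16 bases before the start, and the *Atp5b* window a GC box at 45 bases. *Fasn* held a CCAAT box on the other strand at 59 bases. In the windows of *Cox8b*, *Cox8a* and *Cfd* these letters did not occur.

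Over promoters as a whole, 14251 of 21883 nuclear protein-coding genes had a RefSeq entry within 1000 bases of the gene start, and the 250 bases before the start were searched. TATAAA or TATATA on the gene's own strand, beginning 40 to 20 bases before the start, occurred in 3.93% of all promoters. It occurred in 7 of 64 (10.9%) promoters of the 100 most abundant genes, in 2.99% of the next 900 genes, in 1.30% of the 4000 after these and in 9.91% of the genes listed at 0. The GC box, on either strand, was in 47.8% of all promoters. It was in 32.8% of the top 100, in 63.2% of the next 900 and in 18.3% of the genes at 0. For both, the share among the most abundant genes lay nearer to that of the genes at 0 than to that of the next 900. Among 63 nuclear OXPHOS promoters none held the TATA letters in that place, and 31.7% held a GC box (47.8% of all). The ETS core was in 17.5% of them (10.3% of all promoters, 15.8% of the 900 genes after the top 100 and 17.2% of the 4000 after these). The letters GCATGCG of an NRF1 core were in 8 of the 63 (12.7%), against 4.33% of all promoters. Their share was 9.375% in the top 100, 5.98% in the next 900 and 6.38% in the 4000 after these. In mitochondrial ribosome promoters it was 10.8%. These matches describe letters and not binding sites.

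Gene structure also differed with abundance. The 100 most abundant nuclear protein-coding genes had a median summed exon length of 1967 bases, a median coding length of 779 bases, 5 exons and a span of 7.08 kb. The 5218 least abundant detected genes had medians of 5210 bases, 1554 bases, 8 exons and 28.9 kb. Since FPKM divides by exon length, length and abundance are not independent here.

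Functional classes were next set side by side. The listed classes, 885 genes in all, held 63.1% of the summed FPKM. After the mitochondrial mRNAs, the nuclear genes of oxidative phosphorylation (OXPHOS) were the largest class by FPKM: 84 genes held 8.59% of all FPKM, or 13.9% without mitochondrial transcripts. Their median was 271 FPKM, and 70 of the 84 reached 100 FPKM, a level that only 412 nuclear protein-coding genes reached. By estimated fragments they held 5.46%, slightly less than the 5.55% of fatty acid and triglyceride synthesis. Whole fragments were not recovered for *Scd1*, the most abundant gene of the synthesis class, so the order of the classes by fragments is uncertain. The nuclear OXPHOS genes supplied 33 of the 100 most abundant nuclear protein-coding genes.

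**Figure D3:**
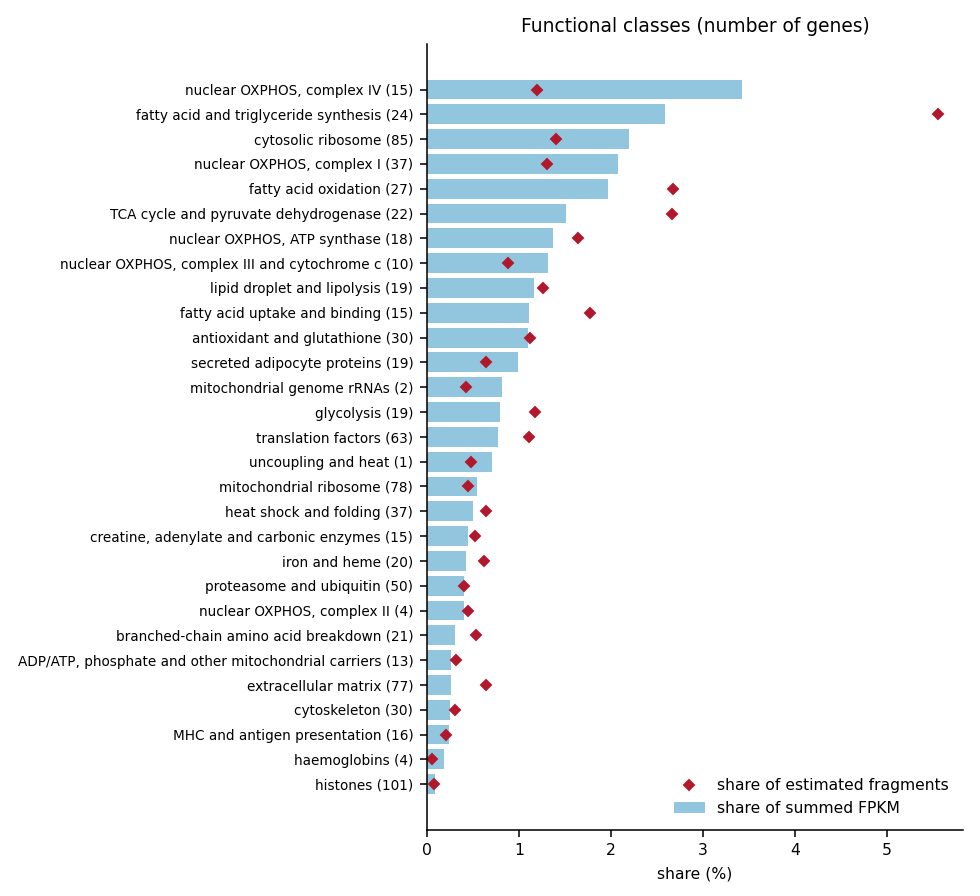
Share of the summed FPKM (bars) and of the estimated fragments (diamonds), in %, for each functional class with its number of genes. The 13 mitochondrial mRNAs (34.9% of FPKM) are left out. Complex IV leads by FPKM at 3.43%, and fatty acid and triglyceride synthesis by estimated fragments at 5.55%.

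Within OXPHOS, the nuclear subunits of complex IV (cytochrome c oxidase) held 3.43% of the summed FPKM with 15 genes, and those of complex I 2.08% with 37 genes. By estimated fragments the order turned, with 1.64% for ATP synthase, 1.30% for complex I and 1.19% for complex IV. The median member had 588 FPKM in complex IV, 501 FPKM in complex III with cytochrome c, 494 FPKM in complex II, 236 FPKM in complex I and 228 FPKM in ATP synthase. In complex I the highest subunits were *Ndufb9* (868 FPKM), *Ndufa1* (698 FPKM) and *Ndufa6* (508 FPKM). In complex II, *Sdha*, the flavoprotein that oxidises succinate, had 666 FPKM and *Sdhc*, a membrane anchor, 144 FPKM. In complex III the lead was held by *Cyc1* (1016 FPKM), and in ATP synthase by the catalytic beta subunit *Atp5b* (1572 FPKM) and the alpha subunit *Atp5a1* (1116 FPKM).

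Only 4 of the 84 nuclear OXPHOS genes lay below 10 FPKM. *Ndufb2*, a complex I subunit, had 7.60 FPKM, *Atpif1*, the inhibitor of ATP synthase, 4.92 FPKM, *Cox6a2* 1.43 FPKM and *Atp5g1* 0.512 FPKM. The median of 271 FPKM over the class was far above all of these. *Cox6a2* is the muscle form of its subunit, and its general form *Cox6a1* is at 3808 FPKM.

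Enzymes that feed the respiratory chain were also abundant. All 22 genes of the citric acid cycle and pyruvate dehydrogenase were detected, with a median of 244 FPKM, among them *Ogdh* (oxoglutarate dehydrogenase, 447 FPKM). All 27 genes of fatty acid oxidation were detected, with a median of 195 FPKM. *Acaa2*, the mitochondrial thiolase, had 1475 FPKM, *Acadl*, the long-chain acyl-CoA dehydrogenase, 1220 FPKM and *Etfa*, which passes their electrons on, 690 FPKM. *Cpt1b* and *Cpt1a*, which load fatty acids onto carnitine for entry, were the lowest members at 11.9 and 4.70 FPKM, the first of these uncertain because an annotated gene overlaps it. Pyruvate dehydrogenase kinase 4, *Pdk4*, which shuts pyruvate out of the cycle, had 803 FPKM.

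Lipid synthesis stood beside lipid burning. The 24 genes of fatty acid and triglyceride synthesis were all detected and held 2.59% of the summed FPKM and 5.55% of the estimated fragments. *Fasn* (fatty acid synthase) had 1408 FPKM, *Thrsp* (Spot14, a lipogenic protein) 838 FPKM, *Dgat2*, which adds the last fatty acid of a triglyceride, 601 FPKM, and *Acly* (ATP-citrate lyase) 301 FPKM. The factors that drive these genes were lower: *Mlxipl* (ChREBP) had 74.1 FPKM and *Srebf1* 46.5 FPKM. Among lipid droplet and lipolysis genes, *Pnpla2*, the first lipase of triglyceride breakdown, had 1170 FPKM, its inhibitor *G0s2* 325 FPKM and *Lipe* (hormone-sensitive lipase) 257 FPKM. Fatty acid uptake was represented by *Dbi* (acyl-CoA binding protein, 837 FPKM), the transporter *Cd36* (675 FPKM) and lipoprotein lipase *Lpl* (491 FPKM).

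Other metabolic classes were smaller. Glycolysis held 0.798% of the sum with *Aldoa*, *Eno1* (422 FPKM) and *Ldha* (398 FPKM) in the lead. *Gapdh*, a glycolytic enzyme often used as a loading control, had only 4.14 FPKM. Its longest transcript was covered over 86.6% of its length by 76 annotated pseudogenes at 95% identity or more. A read that matches several genes may have been left out of the counts, and the part of the copies in this value was not tested. Across the cytosolic ribosome, the 46 genes covered over at least 50% by such copies had a median of 104.5 FPKM and the other 39 a median of 67.1 FPKM. Among the covered genes *Rpl24* (1.39 FPKM) and *Rpl13a* (4.68 FPKM) were covered over 70.2% and 58.5%.

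Copies also appeared as genes of their own. *Mpc1-ps* had 858 FPKM against 67.6 FPKM for *Mpc1*, a subunit of the mitochondrial pyruvate carrier, to which it was identical over 261 bases. *Gm13910* (457 FPKM) was 99.8% identical to *Hadhb*, a subunit of the mitochondrial trifunctional protein, at 424 FPKM. *Gm10221* (276 FPKM) was identical to *Atp5l* (58.4 FPKM) over 309 bases. The levels of these genes and of their copies are uncertain for this reason.

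Protein synthesis took a moderate share. The 85 genes of the cytosolic ribosome held 2.19% of the summed FPKM with a median of 92.6 FPKM, led by *Rplp1* (820 FPKM) and *Rpl36* (629 FPKM). The 78 genes of the mitochondrial ribosome held 0.548% with a median of 23.1 FPKM, led by *Mrpl34* (255 FPKM). The median of mitochondrial ribosomal genes thus stood well below that of the OXPHOS genes whose mitochondrial partners they translate. *Eef1a1*, the elongation factor that brings tRNA to the ribosome, had 893 FPKM. Antioxidant genes held 1.10%, with *Gpx4* (562 FPKM) and *Sod1* (558 FPKM) after *Gpx3*.

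Of the 100 most abundant nuclear protein-coding genes, 20 belonged to no listed class. *Ifi27*, an interferon-inducible protein, had 925 FPKM, *Glul* (glutamine synthetase) 895 FPKM and *Cdo1* (cysteine dioxygenase, which starts taurine synthesis) 714 FPKM. *Psap* (prosaposin of the lysosome) had 690 FPKM, and *Cst3* (cystatin C) 608 FPKM.

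Cell type markers were then read as lists. In bulk tissue, fewer cells of a type and less RNA per cell cannot be told apart, so that a list's level is no cell count. All 19 brown adipocyte markers were detected, at 2.73 to 3164 FPKM with a median of 53.0 FPKM, and the list held 2.10% of the summed FPKM. All 15 general adipocyte markers were detected at 105 FPKM or more, with a median of 393 FPKM. Below *Ucp1*, *Cox8b*, *Cidea* and *Cox7a1* (873 FPKM), the brown list held *Kcnk3*, a potassium channel, at 179 FPKM, *Slc27a2* at 113 FPKM and *Otop1*, a proton channel, at 99.6 FPKM. *Dio2*, which makes active thyroid hormone, had 13.9 FPKM (13.2 to 14.7), and *Elovl3* 21.1 FPKM.

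**Figure D4:**
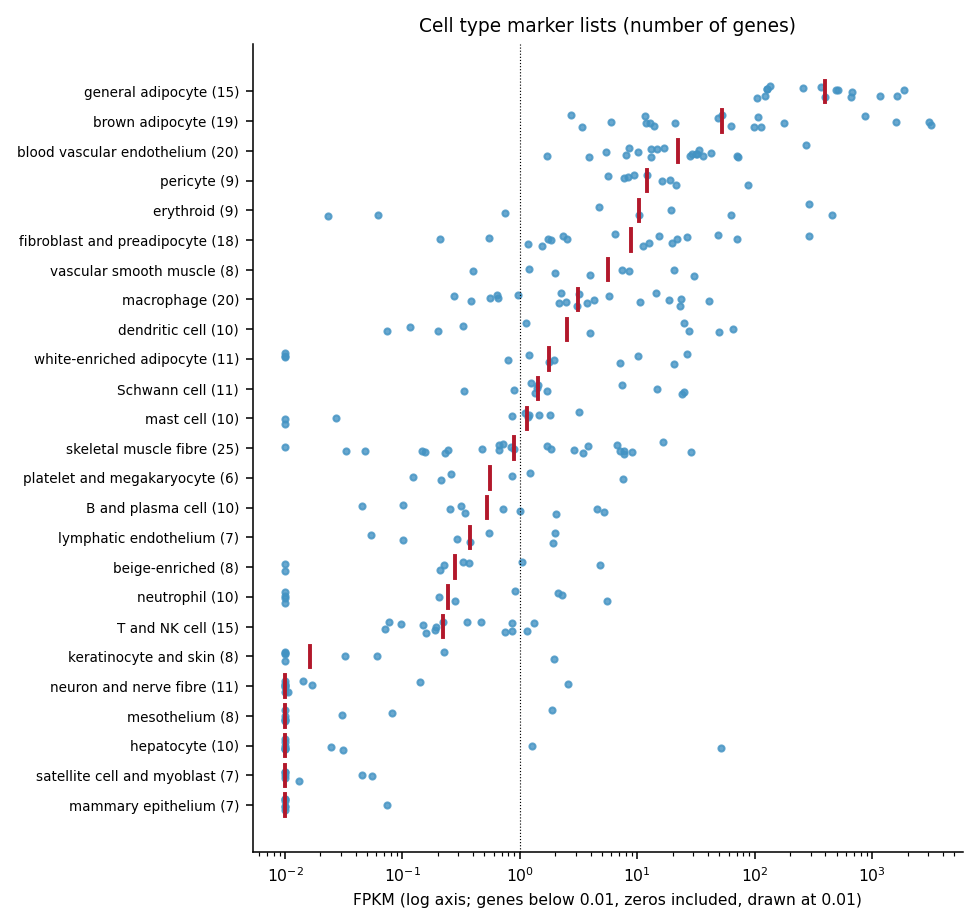
FPKM (x axis, log) of each gene of 25 marker lists (points) and the list median (red bars), with the number of genes in brackets. The dotted line marks 1 FPKM, and genes below 0.01 FPKM, zeros included, are drawn at 0.01. By median the general and brown adipocyte lists lie highest (393 and 53.0 FPKM), followed by blood endothelium and pericytes, whereas the white-enriched and beige-enriched lists lie at 1.76 and 0.278 FPKM.

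Markers enriched in white or beige adipocytes were mixed. Of 11 white-enriched genes 7 were detected with a list median of 1.76 FPKM, and *Wt1*, *Hoxc9* and *Hoxc10* were listed at 0, where 3 fragments would have given 0.0277, 0.0706 and 0.0899 FPKM. *Lep* (leptin) had 1.76 FPKM (1.43 to 2.13) whereas *Retn* (resistin) had 26.7 FPKM, *Dpt* (dermatopontin, a matrix protein) 20.5 FPKM and *Npr3* (the natriuretic peptide clearance receptor) 10.1 FPKM, levels within the range of the brown list. Of 8 beige-enriched genes only *Sp100* (4.78 FPKM) and *Ear2* (1.03 FPKM) were detected, and *Tbx1* and *Tmem26* were listed at 0.

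By median, blood endothelium and pericytes came next after the brown and general adipocyte lists. All 20 blood endothelial markers were detected, with a median of 22.4 FPKM and 0.166% of the sum. *Rgcc*, a regulator of the cell cycle enriched in capillary cells, had 275 FPKM, the endothelial cadherin *Cdh5* 71.9 FPKM and the tight junction gene *Cldn5* 70.6 FPKM, whereas *Vwf*, von Willebrand factor of larger vessels, had 1.72 FPKM. All 9 pericyte markers were detected, led by *Rgs5* at 86.9 FPKM. Lymphatic endothelium had 2 of 7 markers detected, and *Prox1*, its defining factor, had 0.0545 FPKM. In smooth muscle *Acta2* had 30.3 FPKM and *Tagln*, which usually accompanies it, 0.403 FPKM from 14 fragments.

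Stromal and immune lists had medians below those of blood endothelium and pericytes. Of 18 fibroblast and preadipocyte markers 16 were detected, and the list held 0.118% of the sum, above the 0.0415% of the pericyte list, with *Gsn* (287 FPKM), *Ly6a* (71.0 FPKM) and *Col3a1* (48.3 FPKM) first. *Pdgfra*, the receptor that defines adipocyte progenitors, had 1.83 FPKM and *Dpp4* 0.208 FPKM. Of 20 macrophage markers 14 were detected, with a median of 3.14 FPKM and *Lyz2* first at 41.0 FPKM. *Adgre1* (F4/80) had 2.24 FPKM and *Mrc1* 2.17 FPKM. Of 10 dendritic cell markers 6 were detected, and 4 reached 10 FPKM. These 4 were all of MHC class II: its invariant chain *Cd74* (65.3 FPKM), *H2-Eb1* (49.6 FPKM), *H2-Ab1* and *H2-Aa*. The other members ranged from *Zbtb46* at 3.95 FPKM down to *Flt3* at 0.0741 FPKM. Of 10 mast cell markers 6 were detected, none above the 3.21 FPKM of *Gata2*. Only 2 of 15 T and NK cell markers, 3 of 10 B cell markers and 3 of 10 neutrophil markers were detected, and the highest of these was *S100a9* at 5.48 FPKM.

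Markers of blood, muscle, nerve and liver varied widely. *Hbb-bs* and *Hba-a1*, the beta and alpha chains of haemoglobin, had 457 and 289 FPKM. The 4 haemoglobin genes held 0.184% of the summed FPKM, against 0.166% for the blood endothelial list. Counted as estimated fragments, they held 0.0592% against 0.219%, so the order turned. Of 25 skeletal muscle genes 12 were detected, with a summed share of 0.0227%. *Myl1* (28.5 FPKM) and *Acta1* (16.5 FPKM) were the highest, *Ckm* had 2.87 FPKM and *Tnnc2* was listed at 0. None of the 7 satellite cell genes was detected. Among Schwann cell markers 9 of 11 were detected, among them *S100b*, a calcium-binding protein, at 25.02 FPKM. The noradrenaline enzymes *Th* and *Dbh* of sympathetic nerves were listed at 0. Of 10 hepatocyte genes *Cyp2e1*, a cytochrome P450 enzyme, had 52.1 FPKM and *Apoa2* 1.28 FPKM, whereas albumin *Alb* had 0.0244 FPKM from 1 fragment.

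Choice within families was described for 83 families. The most abundant member held a median of 70.8% of its family's FPKM. It held at least 90% in 25 families and less than 50% in 18. Of the 13 families with 2 members, 11 had a member at 90% or more. How the counting treated strand is not given in the sources used here, so levels are uncertain where genes overlap on the genome. Among the 83 leading members this holds for 32, among them *Cox4i1*, *Gpd1*, *Aldoa*, *Cpt1b*, *Adrb3*, *Cebpa*, *Prdm16* and *Zic1*. A named processed pseudogene also makes a level uncertain. It was found for 8 leading members, among them *Slc25a5*, *Ldha*, *Prkaca* and *Akt2*, and 38 had an overlap, such a copy or both.

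**Figure D5:**
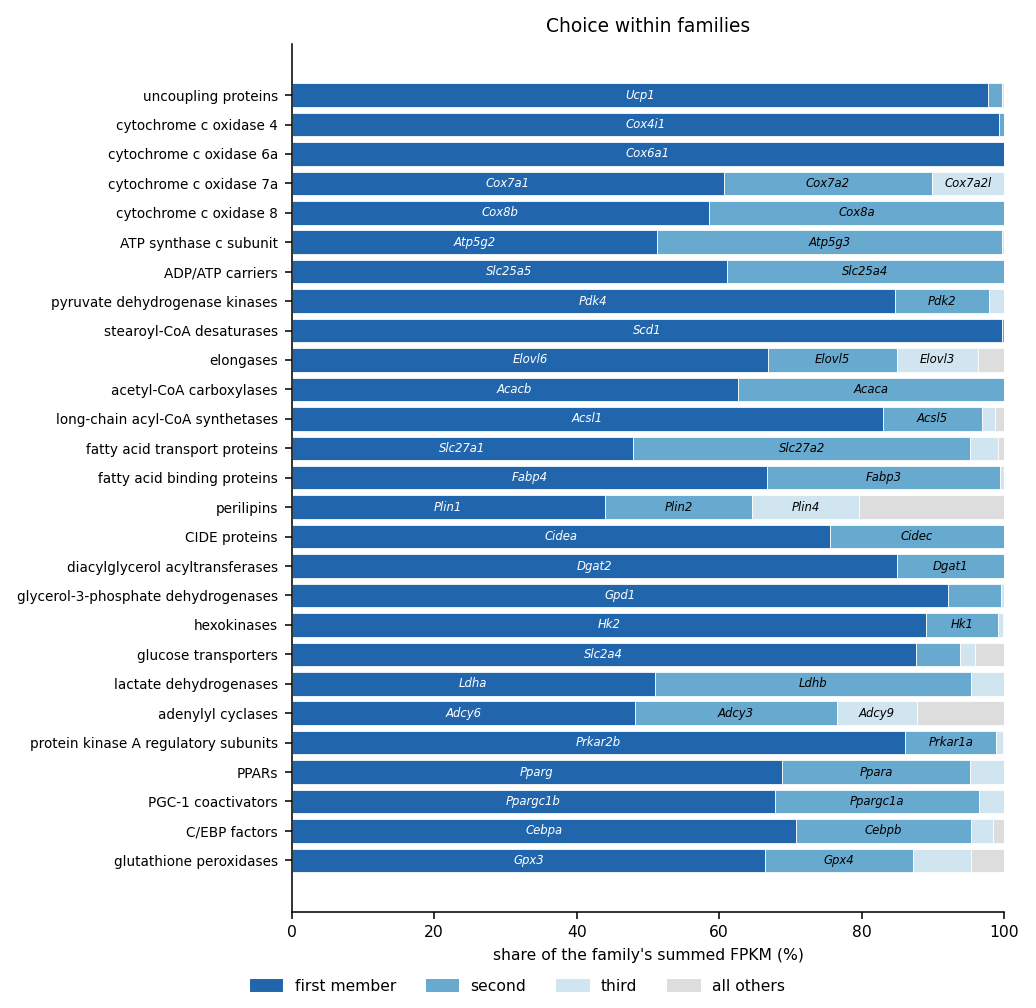
Share of each family's summed FPKM (x axis, %) held by its most abundant member, by the next ones in turn and by all others together, for 27 families of metabolism and signalling. *Ucp1*, *Scd1*, *Cox6a1* and *Cox4i1* each hold over 97% of their family, and *Ppargc1b* stands ahead of *Ppargc1a*.

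Respiratory chain families ranged from a single form to mixtures. *Ucp1* held 97.7% of the uncoupling protein family, 50.3-fold above *Ucp3* (62.9 FPKM, 95% interval of the ratio 48.6 to 52.1). *Cox4i1* was 139-fold above *Cox4i2* (115 to 171), and *Cox6a1*, the general form, was 2663-fold above the muscle form *Cox6a2* (1663 to 4571). In subunits 7a and 8, in contrast, forms typical of muscle and brown fat led: *Cox7a1* stood 2.07-fold above *Cox7a2* (2.01 to 2.14), and *Cox8b* was at 1.41 times *Cox8a*. Counted as fragments without length scaling, *Cox8a* led instead. The c subunit of ATP synthase was split between *Atp5g2* (102 FPKM) and *Atp5g3* (96.5 FPKM), with *Atp5g1* at 0.258% of the family, and *Atp5g3* led by fragments and by longest transcript. *Slc25a5* took 61.0% of the ADP/ATP carriers and *Slc25a4* 39.0%, while *Slc25a31* was listed at 0.

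Lipid families mostly had a clear lead. *Scd1* held 99.8% of the desaturases, *Gpd1* 92.1% of the glycerol-3-phosphate dehydrogenases, *Dgat2* 85.0% of its pair and *Acsl1* 83.0% of the long-chain acyl-CoA synthetases. *Cidea* was 3.10 times *Cidec*. Pairs near balance by FPKM occurred too. *Slc27a1* and *Slc27a2*, 2 fatty acid transport proteins, had 114 and 113 FPKM, a ratio of 1.01 (0.981 to 1.04). *Slc27a1* held 47.9% of the family by FPKM, 58.6% by fragments and 56.9% by longest transcript. An annotated gene overlaps *Slc27a2*, which makes its level uncertain. *Gpat4* and *Gpam*, which start glycerolipid synthesis, had 105.7 and 103.6 FPKM. *Acacb*, the acetyl-CoA carboxylase at mitochondria, was 1.67-fold above *Acaca* (1.65 to 1.70), although *Acaca* led when fragments were not scaled by length. The heart form *Fabp3* (799 FPKM) held 32.7% of the fatty acid binding proteins beside *Fabp4*, a value made uncertain by an overlapping gene and a processed copy.

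Families of glucose use ranged from 1 form to a pair at similar FPKM. *Slc2a4* (GLUT4) had 123.1 FPKM and held 87.6% of the glucose transporters, 14.2-fold above *Slc2a8*, whereas *Slc2a1* had 2.68 FPKM. *Hk2* was 8.70-fold above *Hk1* (8.08 to 9.38). *Ldha* had 398 FPKM and *Ldhb* 347 FPKM, a ratio of 1.15 (1.12 to 1.18). *Ldha* held 51.0% of the family by FPKM, 64.1% by fragments and 61.0% by longest transcript. Annotated pseudogenes of *Ldha* make its level uncertain. *Pkm* (369 FPKM) was the only detected pyruvate kinase, since *Pklr* was listed at 0.

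The receptors and signal relay of sympathetic activation were described next, and those named ranged from 11.7 to 423 FPKM. *Adrb3* had 107 FPKM (104.4 to 109.7) and held 79.8% of the beta-adrenergic receptors, with *Adrb1* at 14.4 FPKM. Among alpha receptors *Adra1a* (14.8 FPKM) and *Adra1d* (11.7 FPKM) were detected and the other 4 were not. Adenylyl cyclases *Adcy6* (62.4 FPKM) and *Adcy3* (36.7 FPKM) led their family of 10. In protein kinase A the regulatory subunit *Prkar2b* had 423 FPKM, 6.76-fold above *Prkar1a* (6.55 to 6.97), and the catalytic subunit *Prkaca* had 145 FPKM. *Pde3b*, which degrades cyclic AMP under insulin, had 47.9 FPKM and 93.2% of its pair.

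Transcription regulators spanned a wide range. Of 29 regulators known from brown fat, 27 were detected, and 17 reached 10 FPKM. *Cebpa* had 393 FPKM, *Cebpb* 136 FPKM, *Pparg*, the master factor of adipocytes, 105 FPKM and *Esrra*, a driver of mitochondrial genes, 100 FPKM. *Ppara* had 40.3 FPKM and *Ppargc1b* 30.6 FPKM. The coactivator *Ppargc1a* had 12.9 FPKM (12.2 to 13.6), and *Ppargc1b* was 2.37-fold above it (2.22 to 2.53). Among the factors that mark the brown lineage, *Ebf2* had 11.7 FPKM, the median of the 29, and the others less: *Prdm16* had 5.98 FPKM (5.61 to 6.37), *Lhx8* 3.39 FPKM and *Zic1* 2.73 FPKM. *Tbx15* (0.718 FPKM) and *Foxc2* (0.0840 FPKM) were not detected.

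Of 49 nuclear receptors 30 were detected. *Nr4a1*, an early response gene, *Pparg* and *Esrra* were the highest, at 110, 105 and 100 FPKM. *Nr4a1* was first by FPKM, and *Esrra* by fragments and by longest transcript. Secreted factors showed a similar spread: *Apoe* had 940 FPKM, *Angptl4*, an inhibitor of lipoprotein lipase, 182 FPKM, *Vegfa*, the growth factor of capillaries, 177 FPKM and *Nrg4* 26.7 FPKM. *Bmp8b*, *Fgf21* and *Il6*, which are known as signals of activated brown fat, had 0.133, 0.0602 and 0.0236 FPKM.

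The machinery of N6-methyladenosine, the mark the study is about, was moderately to weakly expressed. Of 19 genes 16 were detected, none above 16.4 FPKM. The eraser *Alkbh5* (16.4 FPKM) and the reader *Ythdf3* (15.8 FPKM) led, with a ratio of 1.04 (0.967 to 1.11). The writer partner *Wtap* had 8.37 FPKM, *Mettl14* 1.92 FPKM, *Mettl3* 1.80 FPKM and the eraser *Fto* 3.68 FPKM. *Mettl3* overlaps its neighbour *Tox4* on the genome, which makes its level uncertain.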

How the data were processed

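Total RNA was extracted from iBAT of flox/flox mice, and 1 pooled library was sequenced. The study's RNA-seq methods name no step that selects or depletes classes of RNA. Per the study's methods and the submitters' notes, the authors aligned paired-end reads to GRCm38 with TopHat2, counted them per gene with HTSeq 0.6.1 and deposited the values as FPKM. How counts were turned into FPKM is not given in the sources used here. The table of the Mettl3-deleted library was not used, since the control tissue is described on its own.

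FPKM values were multiplied by the summed exon length of GENCODE M21 (52489 of 52768 genes matched by identifier). For 19884 genes, 90.3% of the matched genes above 0, the products were whole multiples of 1 step within 0.001 fragments, which gave their fragments. For the other genes of known length fragments were estimated, which with the recovered ones gave 18999466 in all, and 132 loci named by the authors have no length here. The FPKM values were scaled to a size of 17480546, which this sum exceeds. This procedure was tested on simulated data. Intervals are exact Poisson for FPKM, and exact Clopper-Pearson for ratios of 2 genes, at 95%. A gene at 0 was given a rounded 1-sided 95% limit of 3 fragments, whereas the intervals are 2-sided. The depth limits single genes near 1 FPKM most.

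Named genes were the 30 most abundant, the brown fat markers and Mettl3, the first 3 of each biotype, class and cell list, defining markers at 0, the leading members of each family and regulators described. Further genes were named after their values were seen. Members and lists were chosen with earlier results of these data known. Pseudogene copies were sought with blastn 2.17.0 (at least 95% identity over 100 bases). Promoters came from RefSeq, and none from chromosome 18 was printed. Python 3.11.15, pandas 2.3.3, numpy 2.4.6, scipy 1.17.1 and matplotlib 3.10.9 were used. Alternatives changed the detection level, the length scaling, the mitochondrial transcripts and the members with copies or overlaps. A few genes are not reported here. With 1 library no test between samples was made.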

Additional observations from a re-analysis of the deposited data

How the results depend on the processing

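Shares depended on length scaling and on the mitochondrial transcripts. With fragments of the genes whose whole fragments were recovered in place of FPKM, the mitochondrial mRNAs held 20.8% (34.9% by FPKM), the 10 most abundant genes 23.4% (35.2%), the nuclear OXPHOS genes 5.12% (8.59%), and 214 genes (53) were needed for 50% of the sum. With fragments estimated for every gene of known length, an alternative chosen after seeing the data, these values were 17.5%, 21.4%, 5.46% and 270 genes. Without mitochondrial transcripts the 10 most abundant genes held 9.39%, the nuclear OXPHOS genes 13.9%, and 311 genes were needed; the mitochondrial mRNA share then has no value. With the nuclear pseudogenes added, also after seeing the data, the mitochondrial mRNAs held 35.9%. The number of genes detected was 18444 at 0.1 FPKM, 6344 at 5 FPKM and 22194 above 0, against 11898 at 1 FPKM. The number of families with a member at 90% or more stayed within 1.5 times: 23 by the longest transcript and 25 by fragments, and 25 of the 61 families left without overlapping or copied members. The leading member was the same in 79 of 83 families by the longest transcript and in 73 by fragments. By estimated fragments 5 of 29 classes were more than 1.5 times higher and 7 more than 1.5 times lower, and 7 of 25 cell lists moved that far up and 7 down. Genes with few fragments have the widest intervals. No paired analysis was possible because there was 1 library.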

Other observations

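Further lists, chosen after the values were seen, show other sides of the same tissue. Of 7 genes of gluconeogenesis and glyceroneogenesis 5 were detected: *Pck1* had 1652 FPKM and *Pcx* (pyruvate carboxylase) 206 FPKM, whereas *G6pc*, the phosphatase that releases glucose from liver, had 0.0237 FPKM. All 7 genes of the pentose phosphate pathway, a source of NADPH, were detected with a median of 55.6 FPKM, led by *Taldo1* (402 FPKM) and *Tkt* (369 FPKM). Of 17 urea, glutamine and sulphur amino acid enzymes 12 were detected, and *Glul* (895 FPKM), *Cdo1* (714 FPKM) and *Csad*, the next enzyme of taurine synthesis (111 FPKM), stood far above the list median of 3.11 FPKM. Cholesterol synthesis had 19 of 20 genes detected but a median of only 3.84 FPKM, led by *Fdft1* (squalene synthase) at 47.8 FPKM.

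Of 21 clock genes 19 were detected. *Nr1d1*, a repressor of the clock, had 68.8 FPKM and *Dbp* 22.8 FPKM, while the activators *Arntl* and *Npas2* had 0.745 and 0.394 FPKM. *Nr1d1* overlaps *Thra* on the genome, which makes its level uncertain. The study's methods do not give the time of day at which tissue was taken, and its part in these levels was not tested. Among 18 immediate early genes 16 were detected, led by *Nr4a1* (110 FPKM) and *Dusp1* (35.3 FPKM), with *Fos* at 5.23 FPKM. All 12 endoplasmic reticulum stress genes were detected, with the chaperone *Hspa5* first at 59.8 FPKM. Of 15 interferon-stimulated genes 13 were detected. *Ifi27* (925 FPKM) and *Ifi27l2a* (384 FPKM) led them, while *Isg15* had 5.90 FPKM and *Mx1* 0.267 FPKM. Of 12 proliferation genes only *Pcna* (16.9 FPKM) was detected, and *Mki67* had 0.233 FPKM.

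The Y-linked genes *Ddx3y* (20.1 FPKM) and *Uty* (2.75 FPKM) were detected and *Xist*, which is expressed from the inactive X chromosome of females, had 0.0128 FPKM. Of 1442 sensory receptor genes, which brown fat is not known to use, 38 were above 0 and 1, *Olfr558* at 1.98 FPKM, reached 1 FPKM.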
